A study of Mus musculus with 10 samples.

Results

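The endoplasmic reticulum (ER) chaperone and unfolded protein response genes are followed here in cultured mouse mast cells. The set holds 32 named genes, taken as the rows of the deposited count table whose Ensembl identifiers belong to them. All 32 were found among the 49671 gene rows. They were sorted by role into 9 lumenal chaperones of the HSP70 and HSP90 families with their cofactors, 5 disulfide and proline isomerases, 2 calcium-binding lectins, 2 subunits of the translocon, 6 factors of ER-associated degradation, 4 stress sensors or their direct transcription factors, and 4 targets of the PERK branch.

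Bone marrow-derived mast cells (BMMCs) are mast cells grown from marrow in interleukin-3 (IL-3). Their source was C57BL/6 mice of wild-type genotype, with 6 to 8 weeks given as the age. The growth protocol gives 6 to 8 weeks of culture in IL-3 at 5 ng/mL before the stimulus, whereas the source descriptions of all samples give 10 ng/mL. The 10 libraries fell into 6 groups: IL-3 alone (2 libraries), SCF (stem cell factor, which binds the receptor tyrosine kinase KIT) at 100 ng/mL (2 libraries), SCF with TGF-β at 1 ng/mL (2 libraries), SCF with TGF-β at 10 ng/mL (2 libraries), TGF-β alone at 1 ng/mL (1 library) and TGF-β alone at 10 ng/mL (1 library). Stimulation lasted 72 h in the groups given SCF or TGF-β, and no time is stated for IL-3 alone. No SCF dose is stated for the combinations, and nothing states that replicates came from separate cultures or animals, so p-values measure the spread between these libraries, which may be technical. The cells are a cultured model and were not taken from a tissue.

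Secretory cells fold newly made membrane and secreted proteins in the ER lumen, where chaperones hold unfolded chains, isomerases form and reshuffle disulfide bonds, and lectins hold sugar-bearing chains until they are folded. Chains that fail are passed back to the cytosol for degradation. When unfolded protein accumulates, the sensors IRE1 (gene Ern1), ATF6 and PERK (gene Eif2ak3) act through the factors XBP1, cleaved ATF6 and ATF4, which switch on chaperones, degradation factors and stress genes such as Ddit3. Mast cells store proteases and other granule proteins that are made through this pathway. Splicing of the Xbp1 message, cleavage of ATF6 and phosphorylation of PERK or its substrate are not read by gene counts.

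Gene counts per library lay between 1237382 and 2323916, with a median of 1708116. Loci of ribosomal RNA took 13.7% to 18.3% of them and satellite loci 3.07% to 14.5%, lowest in the SCF libraries and highest with 1 ng/mL TGF-β alone. Of the 32 genes, 31 passed the expression filter and were tested. Levels are given in CPM, a gene's count relative to the library total scaled by its TMM factor, on which 3 counts amounted to 1.26 to 2.55 CPM. A change was called where the adjusted p (Benjamini-Hochberg) was under 0.05 in edgeR's quasi-likelihood test, fitted over 11247 genes. Each ± after a log2 fold change is its standard error. The 10 mast cell markers summed to 53633 to 90590 CPM, with Kit at 3092 to 5072 CPM and Fcer1a at 5487 to 11020 CPM. Markers of plasma cells, which have a large ER, were at or near 0, with Jchain at 2 counts and Mzb1 at 1 count over all libraries. All 9 markers of the B and plasma cell list summed to 1.40 to 4.66 CPM in IL-3 alone, 12.7 and 21.8 CPM in TGF-β alone and 0 to 3.50 CPM in the SCF-containing libraries. In bulk RNA of this kind, a smaller share of cells that express a gene and less of its RNA per cell cannot be told apart.

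Promoters of some genes of this set carry a known sequence element, which is described here by its letters. The ER stress response element (ERSE) is CCAAT and CCACG separated by 9 bases, and ERSE-II is ATTGG and CCACG separated by 1 base. Both were searched on both strands in RefSeq windows (GRCm38.p6) from 250 bases before to 50 bases after each start site, and 27 of the 32 genes had such a window. Hyou1, Manf, Sec61a1, Derl1 and Atf6 had none in the table. ERSE was found in 8 of the 27 (29.6%), against 37 of all 27025 genes with a window (0.137%), the 8 included. ERSE-II was found in 2 of the 27, Herpud1 and Dnajb11, against 12 of all genes (0.0444%). In the following stretches, each read 5′ to 3′ on the gene's own strand and upstream of the start site, capitals mark the paired parts of the element, in either orientation.
Hspa5 (chr2:34772010-34772058, plus strand): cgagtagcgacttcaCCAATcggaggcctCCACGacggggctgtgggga
Calr (chr8:84847060-84847108, minus strand): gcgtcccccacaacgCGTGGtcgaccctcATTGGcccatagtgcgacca
Pdia6 (chr12:17266476-17266524, plus strand): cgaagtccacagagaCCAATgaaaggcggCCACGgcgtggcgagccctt
Creld2 (chr15:88819505-88819553, plus strand): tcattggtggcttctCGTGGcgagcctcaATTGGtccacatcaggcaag
Dnajc3 (chr14:118937812-118937860, plus strand): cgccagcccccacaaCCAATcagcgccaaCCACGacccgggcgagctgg
Canx (chr11:50325785-50325833, minus strand): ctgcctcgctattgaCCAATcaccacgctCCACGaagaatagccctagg
Syvn1 (chr19:6046517-6046565, plus strand): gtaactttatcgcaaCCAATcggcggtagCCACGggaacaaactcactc
Hsp90b1, which holds the element on both strands (chr10:86705518-86705671, minus strand): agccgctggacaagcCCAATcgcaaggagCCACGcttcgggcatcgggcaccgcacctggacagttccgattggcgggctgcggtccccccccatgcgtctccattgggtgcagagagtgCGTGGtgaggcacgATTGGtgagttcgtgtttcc
Herpud1, with ERSE-II (chr8:94386362-94386402, plus strand): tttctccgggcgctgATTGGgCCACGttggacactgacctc

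The Hspa5 element lay 65 to 47 bases before the start site, the Syvn1 element 44 to 26 bases, and the Calr element 162 to 144 bases. The single part CCACG, alone or inside either element, was in the windows of 20 of the 27 genes (74.1%), against 35.5% of all genes. The core TGACGTGG of the XBP1-type element was in 0 of the 27 windows and in 0.714% of all. Among the PERK targets, Ppp1r15a held the cyclic AMP response element TGACGTCA (2.03% of all genes hold it), and Atf3 and Trib3 held the composite CEBP-ATF element TGATGNAA, which Herpud1 also held (4.51% of all genes). A match is a description of the letters in the window.

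The first question was how SCF, added for 72 h, changed these genes relative to IL-3 alone. Genes that fold proteins in the ER lumen were higher with SCF. Of the 31 tested genes, 12 rose and 0 fell, against a background of 9.17% of all tested genes called (5.71% higher, 3.46% lower). The median log2 fold change of the 31 was 0.43, against -0.02 over all tested genes. In 24 of the 31 both SCF libraries lay above both IL-3 libraries, against 26.2% of all tested genes. The calls fell in 6 of 9 chaperones and cofactors, 4 of 5 isomerases, 1 of 2 lectins and 1 of 2 translocon subunits. ER-associated degradation (6 tested), the sensors (4 tested) and the PERK targets (3 tested) had 0 calls by edgeR, DESeq2 and limma-voom, with 3, 0 and 1 of them at an unadjusted p under 0.05. The 3 degradation factors were Edem1 (log2 fold change 0.70 ± 0.24, adjusted p = 0.083), Derl2 (0.43 ± 0.17, adjusted p = 0.14) and Sel1l (0.39 ± 0.16, adjusted p = 0.16, all edgeR). In these, and in Derl1 and Syvn1, both SCF libraries lay above both IL-3 libraries, whereas those of Herpud1 overlapped. Edem1 was called with no filter and with a replicate block.

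**Figure D1:**
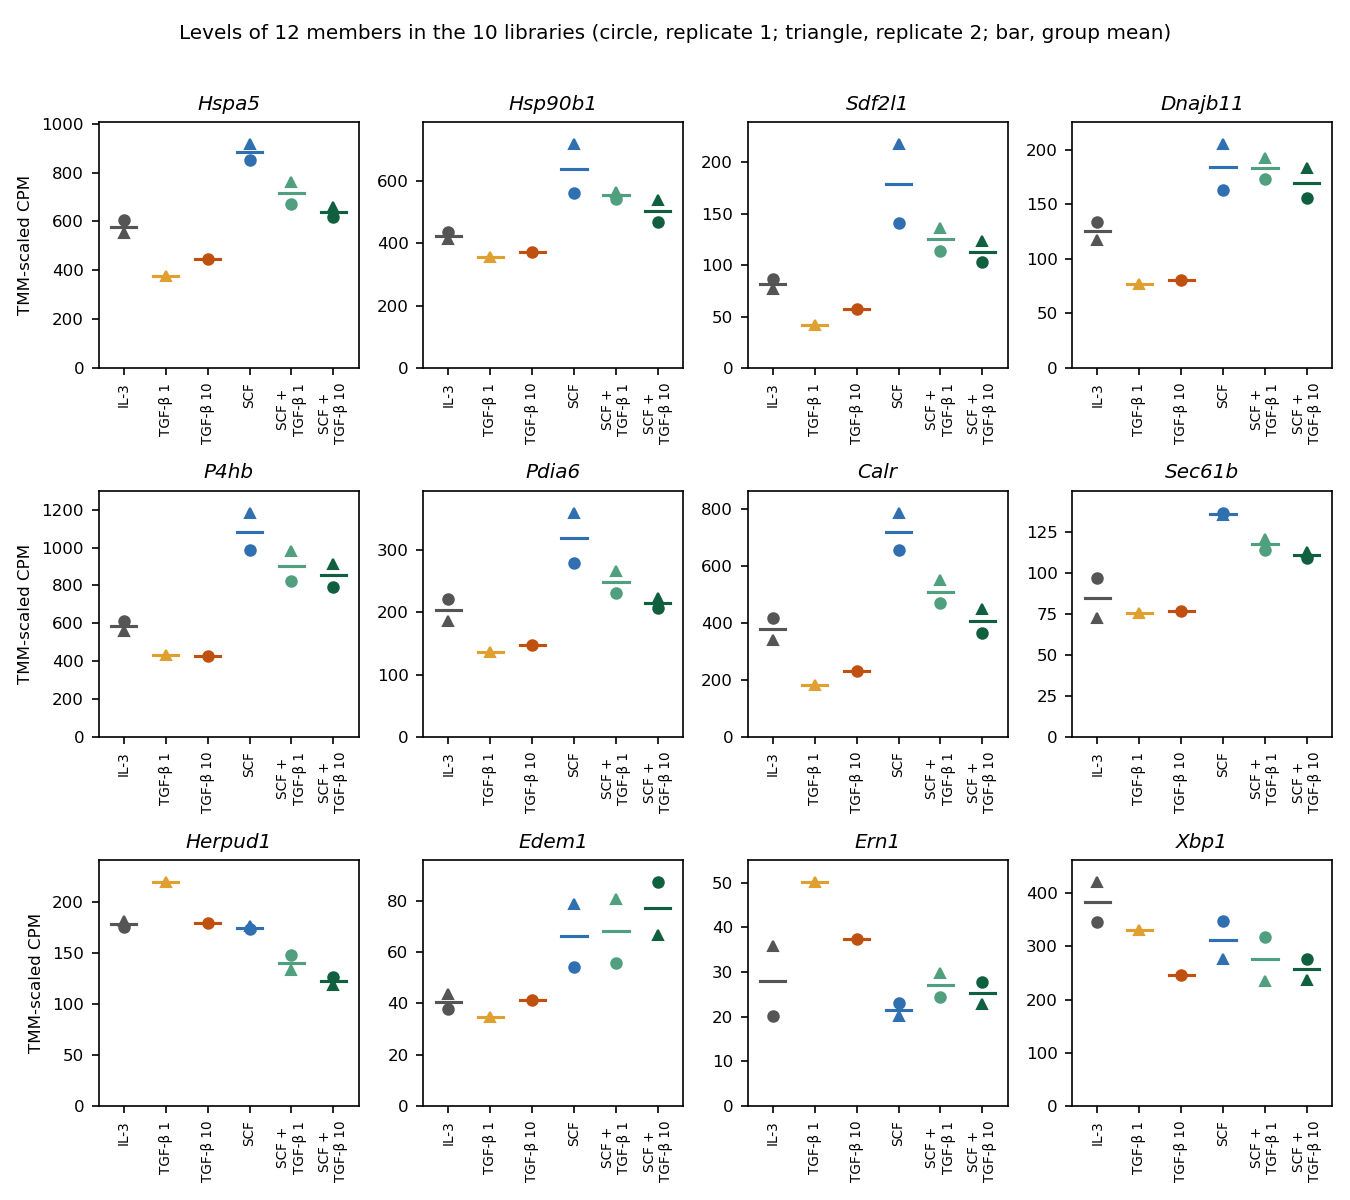
TMM-scaled CPM of 12 of the genes (vertical axes, starting at 0) in each of the 10 libraries, by group (horizontal axes, TGF-β doses in ng/mL). Circles are replicate 1, triangles replicate 2 and bars group means. For Hspa5, Calr, P4hb and Pdia6 the SCF libraries are highest and the libraries of TGF-β alone lowest, while Herpud1, Ern1 and Xbp1 do not follow that order.

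Hspa5 encodes BiP, the HSP70 chaperone of the ER lumen that also holds the stress sensors inactive. Its level was 607 and 551 CPM in the IL-3 libraries and 852 and 915 CPM in the SCF libraries. Both SCF libraries lay above both IL-3 libraries, and the log2 fold change was 0.61 ± 0.13 (adjusted p = 0.0073, n = 2 against 2, edgeR). Hsp90b1, the HSP90 chaperone of the lumen, was at 437 and 413 CPM in IL-3 and at 561 and 717 CPM in SCF (0.59 ± 0.14, adjusted p = 0.017). The SCF replicates of Hsp90b1 differed more from each other than those of Hspa5, yet did not overlap the IL-3 libraries.

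Among the cofactors, Sdf2l1, which forms a complex with DNAJ co-chaperones, had the largest rise of the 12. It was at 87.1 and 77.2 CPM in IL-3 and at 141 and 218 CPM in SCF, a log2 fold change of 1.11 ± 0.20 (adjusted p = 0.0023). Creld2, an ER protein with disulfide isomerase activity, rose by 0.94 ± 0.23 on the log2 scale (adjusted p = 0.017), from 58.6 and 48.4 CPM to 88.1 and 119 CPM. The co-chaperones that stimulate BiP moved less. Dnajc3 rose by 0.58 ± 0.16 (adjusted p = 0.036) and Dnajb11 by 0.54 ± 0.16 (adjusted p = 0.047), whereas Dnajb9, a J-protein that recruits BiP to IRE1, was at 52.3 and 50.5 CPM in IL-3 and 55.1 and 64.3 CPM in SCF (adjusted p = 0.55). Manf, a secreted and ER-resident factor that binds BiP, missed the threshold (0.58 ± 0.19, adjusted p = 0.062), as did Hyou1, the nucleotide exchange factor of BiP (0.38 ± 0.20, adjusted p = 0.26).

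The isomerases were the group with the highest share of calls. P4hb, the protein disulfide isomerase PDI, rose from 611 and 562 CPM to 985 and 1181 CPM (log2 fold change 0.88 ± 0.14, adjusted p = 0.00095). This was the smallest adjusted p of the set in the comparison, and per kilobase of exon P4hb had the highest level of all 32 genes in both IL-3 (205 CPM per kb) and SCF (378 CPM per kb). Pdia6, an isomerase that attenuates IRE1 signalling, rose from 222 and 186 CPM to 279 and 358 CPM (0.64 ± 0.16, adjusted p = 0.018). Pdia4 rose by 0.58 ± 0.17 (adjusted p = 0.039) and Pdia3, which works with the lectins on glycoproteins, by 0.41 ± 0.13 (adjusted p = 0.0497). Ppib, the lumenal cyclophilin that isomerises proline bonds, was at 275 and 255 CPM in IL-3 and 327 and 396 CPM in SCF and did not pass (0.45 ± 0.14, adjusted p = 0.059).

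Calr, calreticulin, the soluble lectin and calcium store of the lumen, rose from 419 and 340 CPM to 655 and 784 CPM, a log2 fold change of 0.92 ± 0.16 (adjusted p = 0.0015). Canx, calnexin, its membrane-bound relative, was at 534 and 515 CPM in IL-3 and at 611 and 728 CPM in SCF (0.35 ± 0.14, adjusted p = 0.12). The libraries of Canx did not overlap, but the difference did not pass the test. Of the translocon, the channel through which chains enter the ER, Sec61b rose from 96.9 and 72.3 CPM to 136 and 135 CPM (0.67 ± 0.17, adjusted p = 0.018), and the pore subunit Sec61a1 was at 447 and 470 CPM in IL-3 and 507 and 509 CPM in SCF (adjusted p = 0.53). Ordered by CPM per kilobase of exon, Sdf2l1 stood 11th of the 32 genes in IL-3 and 5th in SCF, while Xbp1 stood 5th and 10th.

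The stress arm did not pass the test in SCF. Xbp1, the factor downstream of IRE1, was at 347 and 420 CPM in IL-3 and 348 and 276 CPM in SCF, with overlapping libraries (-0.29 ± 0.17, adjusted p = 0.32). Ddit3, which encodes CHOP, the stress factor of the PERK branch, was at 47.2 and 49.1 CPM in IL-3 and 45.1 and 29.6 CPM in SCF (adjusted p = 0.39). Exons of Ddit3 overlap those of Mars and Gm4189 on the other strand and those of another entry named Ddit3 on its own strand, so its counts are uncertain. Atf6 lay between 33.2 and 51.2 CPM and Eif2ak3, PERK, between 6.30 and 15.02 CPM over all 10 libraries. Trib3, a pseudokinase induced through CHOP, had 3 counts in the pooled IL-3 libraries and 13 in the pooled SCF libraries, a ratio of 4.06 with a 95% counting interval of 1.12 to 22.2, which covers counting error only. Atf3, a stress-induced factor, failed the filter with 0 to 5 counts per library.

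Members with and without ERSE were then set side by side. Of the 8 holders, all tested, 6 rose with SCF (Hspa5, Hsp90b1, Dnajc3, Creld2, Pdia6 and Calr), against 6 of the 18 other tested genes that had a window, and the median log2 fold changes were 0.60 and 0.42. Of the 5 genes without a window, 0 were called in this comparison, although Hyou1, Manf and Sec61a1 were called in others. Canx and Syvn1, an E3 ubiquitin ligase of ER-associated degradation, hold the element and were not called. All holders except Syvn1 are chaperones, isomerases or lectins, whereas the 18 others include sensors, PERK targets and degradation factors. Among chaperones, cofactors and isomerases without ERSE in their windows, Dnajb11, Sdf2l1, Pdia3, Pdia4 and P4hb were called, and Dnajb9 and Ppib were not. Role and element were thus mixed, and the part of the element was not tested. Of the 29 genes outside the set whose window holds ERSE, 4 were expressed enough to be tested, with a median log2 fold change of -0.13. P4hb and Sdf2l1, with rises of 0.88 and 1.11 on the log2 scale, held no ERSE in their windows but did hold CCACG.

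Of the 12 calls by edgeR, DESeq2 made 8, without Dnajb11, Dnajc3, Pdia4 and Sec61b, and limma-voom made 11, without Dnajb11. Over all genes DESeq2 called 469 and limma-voom 906, against 1031 by edgeR. The edgeR calls rest on few libraries. The count was 2 (Calr and P4hb) without the second IL-3 library, 2 (the same pair) without the second SCF library and 7 without the first IL-3 library. Calls over all genes fell in the same fits, from 1031 to 237, 316 and 741. Cell cycle genes moved in the same comparison, with 8 of 10 higher and their summed level at 522 and 311 CPM in IL-3 and 912 and 1085 CPM in SCF. Among the mast cell markers Tpsb2, Cpa3 and Hpgds rose and Mitf fell. Of 7 macrophage markers Cd68 rose, from 1.55 and 4.91 CPM to 50.1 and 65.6 CPM, while C1qb and Marco were at 0 counts in every library. Csf1r (14.5 and 7.02 CPM in IL-3, 12.5 and 7.56 CPM in SCF) and Adgre1 (1.55 and 4.91 CPM, then 2.50 and 3.78 CPM) were not called. The list's sum was 17.6 and 16.8 CPM in IL-3 and 65.1 and 76.9 CPM in SCF. Of 4 basophil markers, Mcpt8 rose (2.80 on the log2 scale), Prss34 fell (-2.10) and the others were not called. The part of any of these in the result was not tested.

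**Figure D2:**
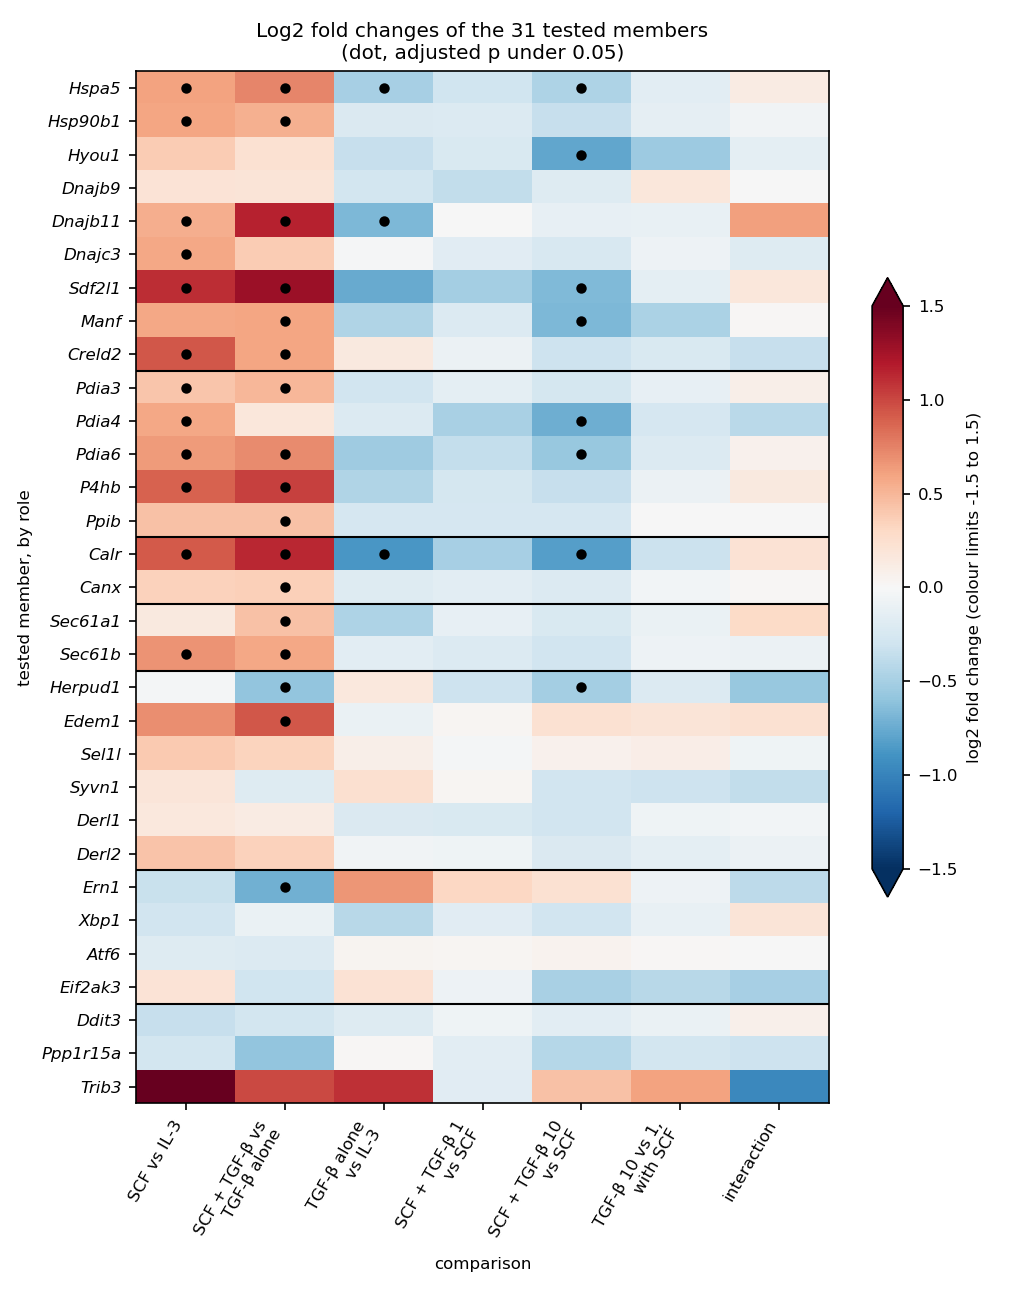
Log2 fold changes (colour, red higher and blue lower, limits -1.5 to 1.5) of the 31 tested genes in the 7 comparisons, with rows grouped by role and a dot where the adjusted p was under 0.05. Of the 12 dots of SCF against IL-3, 6 are on chaperones and cofactors, 4 on isomerases, 1 on the lectin Calr and 1 on the translocon subunit Sec61b. Trib3 in the lowest row rests on 1 to 12 counts per library.

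The next question was whether TGF-β changed the response of SCF-treated cells. With TGF-β at 10 ng/mL, 8 of the 31 genes fell relative to SCF alone and 0 rose, against a background of 8.37% of all tested genes called (3.78% higher, 4.59% lower). The median log2 fold change was -0.29, against 0.00 over all tested genes. In 19 of the 31 both libraries lay below both SCF libraries, against 24.5% of all tested genes. The 8 were 4 chaperones or cofactors (Hspa5, Hyou1, Sdf2l1 and Manf), the isomerases Pdia4 and Pdia6, the lectin Calr and the degradation factor Herpud1. This comparison, that of the lower dose and SCF against IL-3 share the same 2 SCF libraries and are not independent of each other.

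Calr had the largest fall. It was at 655 and 784 CPM in SCF and at 365 and 448 CPM with 10 ng/mL TGF-β, a log2 fold change of -0.82 ± 0.16 (adjusted p = 0.0023). The higher-dose libraries overlapped the IL-3 libraries (419 and 340 CPM). Pdia4 fell from 162 and 206 CPM to 99.2 and 123 CPM (-0.73 ± 0.17, adjusted p = 0.010), also overlapping IL-3 (130 and 115 CPM).

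Hspa5 fell from 852 and 915 CPM to 619 and 660 CPM (-0.47 ± 0.13, adjusted p = 0.031), which remained above both IL-3 libraries. Hyou1, which was not called with SCF, fell from 70.1 and 78.2 CPM to 42.0 and 44.5 CPM (-0.77 ± 0.20, adjusted p = 0.021). Manf fell from 111 and 139 CPM to 78.6 and 77.1 CPM (-0.68 ± 0.19, adjusted p = 0.031); its exons overlap those of Rbm15b on the same strand. Sdf2l1 (-0.66 ± 0.19, adjusted p = 0.044) and Pdia6 (-0.56 ± 0.16, adjusted p = 0.032) were lower in both libraries than in either SCF library.

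Herpud1, a membrane protein that organises the degradation complex, followed a course of its own. It was level between IL-3 (176 and 182 CPM) and SCF (174 and 177 CPM) and fell to 127 and 119 CPM with 10 ng/mL TGF-β (-0.51 ± 0.14, adjusted p = 0.033). With TGF-β alone it was at 220 and 180 CPM. The other degradation factors gave adjusted p of at least 0.25 in this comparison, among them Edem1, which extracts misfolded glycoproteins, at 54.1 and 78.8 CPM in SCF and 87.1 and 66.8 CPM with the higher dose. P4hb, which had the smallest adjusted p with SCF, was at 985 and 1181 CPM in SCF and 794 and 914 CPM with the higher dose and did not pass (-0.34 ± 0.14, adjusted p = 0.17). Dnajb11 was at 156 and 183 CPM with the higher dose, against 163 and 205 CPM in SCF (adjusted p = 0.76).

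At 1 ng/mL TGF-β with SCF, 0 of the 31 genes were called by edgeR, against a background of 4.64% (1.89% higher, 2.75% lower). Of the 31, 6 had an unadjusted p under 0.05, against 16.2% of all tested genes. DESeq2 called 0 and limma-voom called 1 (Calr). The median log2 fold change was -0.17. Calr was at 469 and 551 CPM, between its levels in SCF and at the higher dose, with a log2 fold change of -0.50 ± 0.15 and an adjusted p of 0.085. Sdf2l1 was at 114 and 137 CPM (-0.52 ± 0.19, adjusted p = 0.16).

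Between the TGF-β doses, 10 against 1 ng/mL with SCF, 0 genes of the set were called by edgeR, DESeq2 or limma-voom, and 3 (Calr, Hyou1 and Manf) had an unadjusted p under 0.05. The background was 0.0178%, which is 2 of 11247 genes, and 2.78% of all tested genes had an unadjusted p under 0.05. The 31 genes had a median of -0.11 on the log2 scale, with Calr at -0.33 ± 0.16, Hyou1 at -0.55 ± 0.20 and Manf at -0.47 ± 0.19. A difference between the doses was thus not detectable here, and the calls at 10 ng/mL without calls at 1 ng/mL do not show that the doses differ.

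**Figure D3:**
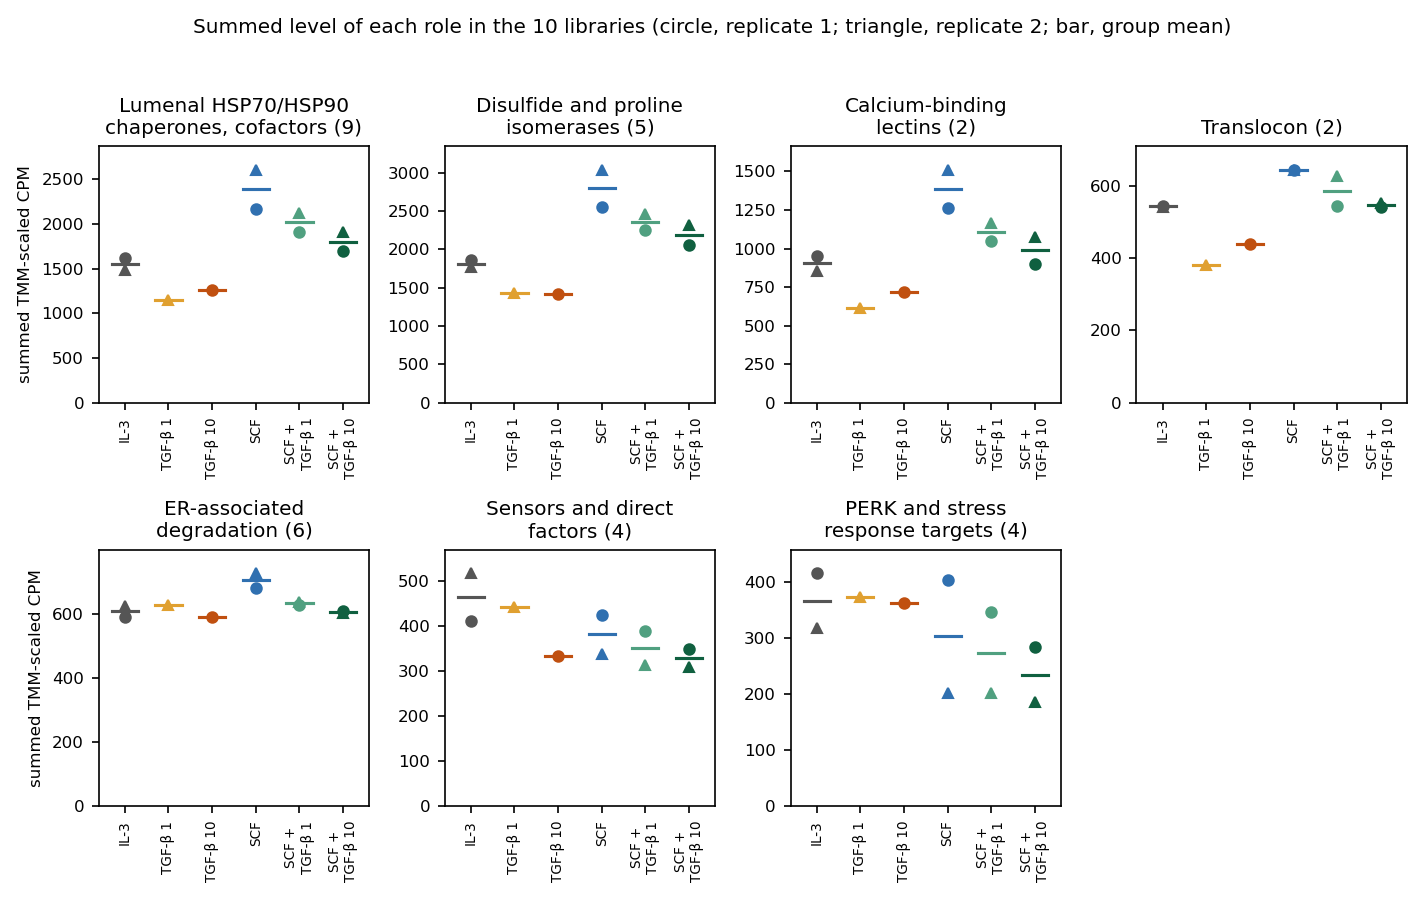
Summed TMM-scaled CPM of the genes of each role (vertical axes, starting at 0) in the 10 libraries by group (TGF-β doses in ng/mL). Circles are replicate 1, triangles replicate 2 and bars group means, and the number of genes is in brackets. Chaperones, isomerases and lectins are highest in SCF and lowest in TGF-β alone, the degradation factors stay between 590 and 726 CPM, and the PERK targets differ most between replicates.

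The calls at 10 ng/mL depended on single libraries. The count was 0 without the first library of SCF with 10 ng/mL TGF-β, 2 without the second (Calr and Pdia4), 5 without the first SCF library and 1 (Calr) without the second. Over all genes the calls in these fits were 447, 531, 503 and 625, against 941 with all libraries. DESeq2 called 2 (Calr and Pdia4). In the same comparison the immediate early genes Dusp1 and Zfp36 fell and 6 of 10 cell cycle genes rose, with the cell cycle sum at 1678 and 1921 CPM against 912 and 1085 CPM in SCF. Among the mast cell markers, Cpa3, Hdc, Fcer1a and Kit fell. Itgax rose, to 16.5 and 7.06 CPM from 0.501 and 0 CPM. The part of any of these in the result was not tested.

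The effect of TGF-β without SCF was read from the mean of its 2 libraries, 1 per dose, against IL-3. In this comparison, 3 genes fell (Calr, Hspa5 and Dnajb11) and 0 rose, against a background of 3.48% called (1.36% higher, 2.12% lower). The median of the 31 was -0.20, against -0.02 over all tested genes. In 19 of the 31 both TGF-β libraries lay below both IL-3 libraries, against 22.1% of all tested genes.

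Calr was at 184 CPM with 1 ng/mL and 233 CPM with 10 ng/mL, below both IL-3 libraries (419 and 340 CPM), with a log2 fold change of -0.87 ± 0.16 (adjusted p = 0.0049). Hspa5 was at 375 and 445 CPM, against 607 and 551 CPM (-0.50 ± 0.13, adjusted p = 0.043). Dnajb11 was at 77.2 and 80.8 CPM, against 134 and 117 CPM (-0.67 ± 0.18, adjusted p = 0.048). The libraries of these 3 genes did not overlap between the groups. Sdf2l1 was also lower in both, at 41.6 and 57.5 CPM against 87.1 and 77.2 CPM, and missed the threshold (-0.75 ± 0.23, adjusted p = 0.097).

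Ern1, which encodes the sensor IRE1, was at 50.1 and 37.3 CPM with TGF-β alone and at 20.2 and 35.8 CPM in IL-3 (0.66 ± 0.28, adjusted p = 0.25). No call of this comparison stood when the library of 1 ng/mL TGF-β or the first IL-3 library was left out, and 1 (Calr) did without the library of 10 ng/mL, the second IL-3 library or either library of SCF with 10 ng/mL TGF-β. The B and plasma cell marker Ighm was at 11.9 and 21.8 CPM in TGF-β alone and 4.66 and 0.702 CPM in IL-3. Ighm was not called, whereas the dendritic cell marker Itgax rose from 1.04 and 0 CPM to 17.8 and 38.9 CPM, with the 5 markers of that list summing to the same 17.8 and 38.9 CPM and Xcr1 and Siglech at 0 in every library. Among the mast cell markers Cpa3, Hdc and Fcer1a fell and Tpsb2 rose. The library of 1 ng/mL TGF-β alone also stood apart in its makeup, with satellite loci at 14.5% of gene counts (7.29% with 10 ng/mL, 5.93% and 9.39% in IL-3) and 55.6% of reads not uniquely aligned. With ribosomal RNA and satellite loci taken out before the fit, the same 3 genes were called. That fit keeps the library of 1 ng/mL TGF-β and cannot tell what its makeup contributed. The part of this makeup or of the markers in the result was not tested. The plasma cell markers Jchain and Mzb1 were at 0 to 0.849 CPM in every library.

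SCF in the presence of TGF-β was compared with TGF-β alone, as means over both doses. This comparison shares no library with SCF against IL-3. Of the 31 genes, 15 rose and 2 fell, against a background of 24.7% called (13.3% higher, 11.4% lower). The median was 0.38, against -0.01 over all tested genes. Genes called higher in both comparisons numbered 10, which is 83.3% of the 12 and 66.7% of the 15, whereas over all tested genes 523 were shared, 81.5% of 642 and 34.9% of 1500. The 10 were Hspa5, Hsp90b1, Dnajb11, Sdf2l1, Creld2, Pdia3, Pdia6, P4hb, Calr and Sec61b.

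Sdf2l1 differed most. It was at 41.6 and 57.5 CPM with TGF-β alone and at 103 to 137 CPM in the 4 libraries of the combinations, a log2 fold change of 1.28 ± 0.21 (adjusted p = 0.00026). Dnajb11 was at 77.2 and 80.8 CPM against 156 to 192 CPM (1.15 ± 0.16, adjusted p = 6.5e-05). Calr was at 184 and 233 CPM against 365 to 551 CPM (1.13 ± 0.15, adjusted p = 4.3e-05). In these 3 genes all 4 libraries of the combinations lay above both libraries of TGF-β alone.

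Other rises in this comparison were P4hb (1.03 ± 0.13, adjusted p = 3.0e-05), Hspa5 (0.73 ± 0.12), Pdia6 (0.70 ± 0.15), Manf and Creld2 (both 0.59), Sec61b (0.58), Hsp90b1 (0.53), Pdia3 (0.50), Ppib and Sec61a1 (both 0.44) and Canx (0.36), all on the log2 scale. Both lectins and both translocon subunits were thus called here by edgeR. Among these rises, DESeq2 did not call Canx, Sec61b, Manf or Creld2. Creld2 was also not called by limma-voom, with the filter of 10 CPM in at least 2 libraries or in a fit of only the groups compared. Edem1 was the only one of the 6 degradation factors of the set called higher in any of the 7 comparisons. It rose here from 34.8 and 41.2 CPM to between 55.6 and 87.1 CPM (0.93 ± 0.23, adjusted p = 0.0067). Ern1 and Herpud1 fell. Ern1 was at 50.1 and 37.3 CPM with TGF-β alone and at 22.8 to 29.7 CPM with SCF added (-0.73 ± 0.24, adjusted p = 0.033), and DESeq2 did not call it. Herpud1 was at 220 and 180 CPM against 119 to 148 CPM (-0.59 ± 0.12, adjusted p = 0.0022). All 10 cell cycle genes rose in this comparison, as did Cd68, Mcpt8, Cd200r3 and Ncr1 among markers of other cell types, while Ighm, Siglecf and Itgax fell. DESeq2 did not call Ncr1, Siglecf or Itgax. Over all libraries Ncr1 had 80 counts and Siglecf 37, while Cd3e, Cd3g, Cd4, Prg2, Epx and Ear1 of the same lists had 0. The macrophage markers Csf1r and Adgre1 were not called. Of the mast cell markers Cpa3 and Hpgds rose and Kit fell, and of the immediate early genes Btg2, Zfp36 and Junb fell. The part of any of these in the changes was not tested. Without the library of 1 ng/mL TGF-β the count was 7, and that over all genes 1278 against 2780. With ribosomal RNA and satellite loci taken out, the count was 17, as before. The part of the makeup of the library of 1 ng/mL TGF-β was not tested.

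Whether the effect of TGF-β differed with and without SCF was tested as an interaction. By edgeR, DESeq2 and limma-voom 0 genes of the set were called, against a background of 0.293%, and 2 (Dnajb11 and Herpud1) had an unadjusted p under 0.05, against 9.15% of all tested genes. The median was -0.01. Dnajb11 had an interaction of 0.61 ± 0.23 on the log2 scale (adjusted p = 0.39), the difference between -0.06 for TGF-β with SCF (mean of both doses) and -0.67 for TGF-β without SCF. Herpud1 had -0.57 ± 0.19 (adjusted p = 0.33), from -0.41 and 0.15 in the same order. For Calr the interaction was 0.21 ± 0.21 (adjusted p = 0.81), from -0.66 and -0.87. With single libraries of TGF-β alone, these estimates have wide errors and do not show that the effects were equal.

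Over the 7 comparisons 20 of the 32 genes were called at least once and 12 never, against 30.8% of all tested genes called at least once. The 12 were Dnajb9, Sel1l, Syvn1, Derl1, Derl2, Xbp1, Atf6, Eif2ak3, Ddit3, Ppp1r15a, Trib3 and the untested Atf3. They thus include 4 of the 6 degradation factors (the scaffold Sel1l, its ligase Syvn1 and the derlins), 3 of the 4 sensors and factors, and all 4 PERK targets. Among these, Derl1 stayed within 175 to 237 CPM and Sel1l within 70.9 to 106 CPM. The sum of all 32 genes was lowest with 1 ng/mL TGF-β alone (5015 CPM) and highest in the second SCF library (9071 CPM), and the IL-3 libraries stood at 6392 and 6103 CPM.

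Replicates of a group differed in the same direction in many of the genes. All 16 chaperones, isomerases and lectins were higher in the second than in the first SCF library. The same held for 14 of 16 in SCF with 1 ng/mL and 14 of 16 in SCF with 10 ng/mL TGF-β, but for 3 of 16 in IL-3. Of the 15 other tested genes of the set, 6, 8, 7 and 9 were higher in the second library, in the same order of groups. The share over all tested genes was not counted, so these counts do not set the 16 apart from genes outside the set. Ppp1r15a, the phosphatase subunit that ends the PERK signal, differed the other way in the SCF-treated groups. In IL-3, Ppp1r15a was lower in the second library, as were 13 of the 16 chaperones, isomerases and lectins. It was at 354 CPM in the first and 166 CPM in the second SCF library, at 302 and 164 CPM in SCF with 1 ng/mL TGF-β, at 242 and 145 CPM in SCF with 10 ng/mL, and at 365 and 267 CPM in IL-3. The ratio of the first to the second library was 1.36 in IL-3, 2.14 in SCF, 1.85 with 1 ng/mL and 1.67 with 10 ng/mL. No difference of Ppp1r15a between groups passed the test in any of the 7 comparisons, with the unadjusted p under 0.05 for the combinations against TGF-β alone (-0.59 ± 0.27, adjusted p = 0.12). It was called lower there under 5 alternatives, namely no filter, a replicate block, and fits without the first library of SCF with 1 ng/mL TGF-β, of SCF with 10 ng/mL TGF-β or of every SCF-treated group. In the last of these it was also called lower in SCF against IL-3.

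**Figure D4:**
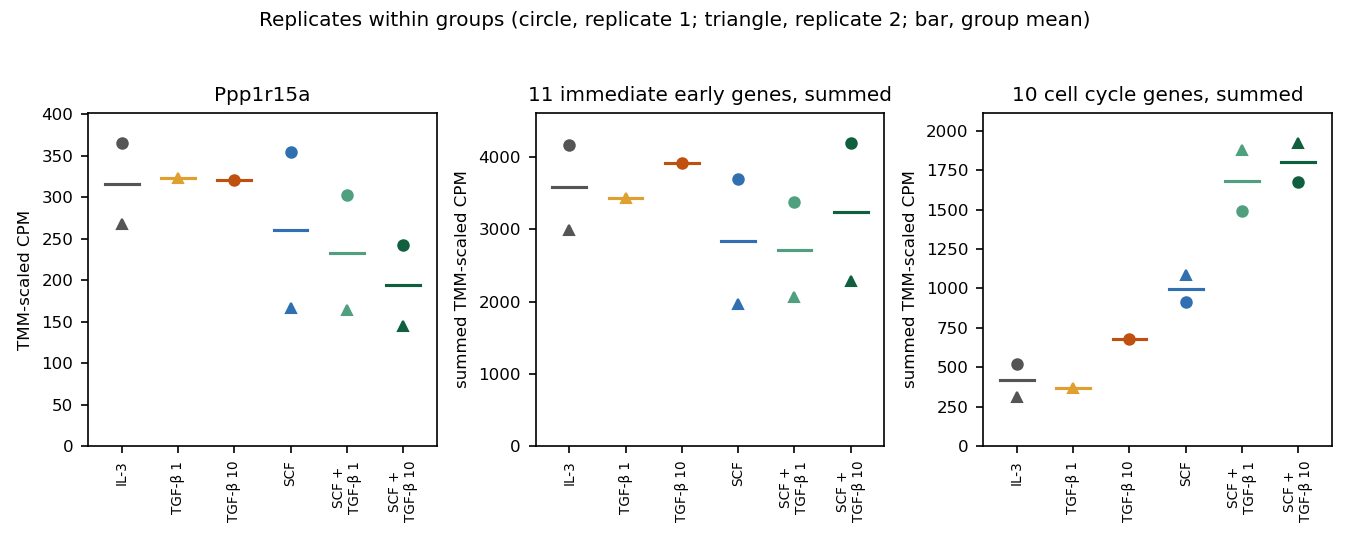
TMM-scaled CPM of Ppp1r15a (left), summed CPM of 11 immediate early genes (middle) and of 10 cell cycle genes (right) in the 10 libraries by group, all axes starting at 0. Circles are replicate 1, triangles replicate 2 and bars group means. In the 4 groups with 2 libraries, the first lies above the second for Ppp1r15a and for the immediate early genes.

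The 11 immediate early genes, a list that does not hold Ppp1r15a, showed the same order of libraries. Their sum was 4171 and 2993 CPM in IL-3, 3699 and 1967 CPM in SCF, 3380 and 2063 CPM in SCF with 1 ng/mL TGF-β and 4193 and 2286 CPM in SCF with 10 ng/mL. Immediate early genes respond within minutes to handling and stimuli. The first libraries were higher in all 4 groups, and the part of this difference in the replicate spread of the set was not tested. With the second library of each of the 3 SCF-treated groups left out, 5 genes were called in SCF against IL-3 (Calr, Hspa5, P4hb, Sdf2l1 and Sec61b), and with the first ones left out, 16 (15 higher and Ppp1r15a lower). Over all genes these fits called 594 and 1149.

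Other genes of the pathway, from lists written with earlier results of these data known, are given next, against 5.71% of all tested genes higher with SCF and 13.3% higher in the combinations against TGF-β alone. Of 19 further ER folding and glycan quality control genes that were tested, 3 rose with SCF (Ero1l, Hspa13 and Prkcsh). Ero1l, the oxidase that recharges disulfide isomerases, was at 580 and 575 CPM in IL-3 and 1164 and 1382 CPM in SCF (1.14 ± 0.13, adjusted p = 5.5e-05), which did not overlap. It fell with 10 ng/mL TGF-β to 761 and 812 CPM, the only call of its list in that comparison. With 1 ng/mL TGF-β and SCF, Ero1l also fell, to 854 and 906 CPM (-0.53 ± 0.13, adjusted p = 0.020, edgeR), again the only call of its list. Of 22 further genes of ER translocation and sugar transfer, 4 rose with SCF (Ssr3, Ssr4, Ostc and Ddost), and Ssr3 and Sec11a fell with 10 ng/mL TGF-β in its presence. Ssr3 also fell with 1 ng/mL TGF-β in the presence of SCF (-0.51 ± 0.14, adjusted p = 0.048, edgeR).

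Of 18 further degradation genes, 0 were called with SCF by edgeR, DESeq2 and limma-voom, with 3 at an unadjusted p under 0.05, and Vimp fell with TGF-β at 1 and at 10 ng/mL in the presence of SCF. With TGF-β alone against IL-3, Vimp fell and Edem2 rose (0.62 ± 0.16, adjusted p = 0.041), and DESeq2 called 0 of these degradation genes. Of the 22 translocation genes, Ssr4 (-0.57 ± 0.13, adjusted p = 0.023) and Sec11a (-0.54 ± 0.15, adjusted p = 0.0499, both edgeR) fell there, and DESeq2 called 1. Of the 19 folding genes, 0 were called there. Of 10 further regulators of the unfolded protein response, 0 were called with SCF by any of the 3 tools, with 2 at an unadjusted p under 0.05. In the combinations against TGF-β alone the same lists gave 8 of 19 folding genes and 8 of 22 translocation genes higher, 0 of 18 degradation genes called (0 by DESeq2 and limma-voom, 3 at an unadjusted p under 0.05), and among the regulators Eif2s1 higher and Nfe2l2 lower. Of 11 amino acid response genes, which share the factor ATF4 with the PERK branch, 1 (Psat1) rose with SCF and 5 rose in the combinations against TGF-β alone. Of 9 cytosolic heat shock genes, which answer unfolded protein outside the ER, 1 (Hspa8) and 4 rose in these comparisons.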

How the data were processed

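Total RNA of the 10 samples was made into full-length cDNA libraries (SmartSeq2, Nextera XT) and sequenced on a NextSeq500, per the labels' protocols. The submitters' processing notes name GRCm38 (mm10), STAR, HTSeq and DESeq2, and neither tool versions nor the gene annotation used by the authors is given in these sources. The authors deposited raw counts of reads per gene. Reads that named no gene (5 rows: no feature 26.0% to 33.6%, ambiguous 2.04% to 2.85%, not unique 37.2% to 55.6% of all counted) were left out. No molecular identifiers are named, and whether counting used strand is not stated. On the same strand, exons of Manf overlap those of Rbm15b, and exons of Ddit3 those of another entry of that name. Exons of Hsp90b1 (Gm15344 and Gm25745) and Pdia4 (Mir704) also overlap those of other genes on the same strand. Exons of Ddit3, Manf, Hsp90b1, Dnajb9, Pdia3, Pdia6, Ppib, Sec61a1, Syvn1, Derl2, Eif2ak3 and Ppp1r15a overlap those of genes on the other strand. Counts of these genes carry the same uncertainty.

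The tests used edgeR 4.0.16 under R 4.3.3 (TMM, filterByExpr, quasi-likelihood F test), with 1 mean for each of 6 groups over all 10 libraries, 4 residual degrees of freedom and a common biological coefficient of variation of 0.126. The 2 groups of TGF-β alone, with 1 library each, took their spread from the other groups. Calls used an adjusted p under 0.05 (Benjamini-Hochberg) over all genes tested in each of 7 contrasts. Standard errors are the log2 fold change divided by the root of F. Exon lengths and loci came from GENCODE vM21, and promoter windows from RefSeq. Ribosomal RNA loci (359) and satellite loci (13) were recognised by symbol and gene type. The fit was tested on simulated counts.

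The 32 members, the lists and their roles were chosen with earlier results of these data known. Any member may be named, and from other lists at most 4 called genes per contrast. The 2 libraries of a group differed by more than counting error (chi-square per gene 3.23 to 4.12). Alternatives were DESeq2 size factors, DESeq2 1.42.0, limma-voom (limma 3.58.1), no filter, 10 CPM in at least 2 libraries, only the groups compared, a replicate block, no ribosomal RNA or satellite loci, and each library left out. Fits that left out the first, or the second, library of every SCF-treated group were added after the data were seen.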

Additional observations from a re-analysis of the deposited data

How the results depend on the processing

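The 40 called changes were each read again in 20 alternative fits, which gives 800 values. No direction reversed, 147 of the 800 were no longer called, and 9 of the 40 were called in all 20. The 40 were chosen as called in these same data and the fits share most libraries. A kept direction is therefore not independent support. These 9 were Calr and P4hb in SCF against IL-3, and Calr, Dnajb11, Hspa5, P4hb, Pdia3, Pdia6 and Sdf2l1 in the combinations against TGF-β alone. Leaving out each library in turn gave 2 to 12 called genes for SCF against IL-3, 0 to 1 for 1 ng/mL TGF-β with SCF, 0 to 8 for 10 ng/mL, 0 to 4 for TGF-β alone and 7 to 18 for the combinations against TGF-β alone. With the second library of each SCF-treated group left out, the counts were 5 for SCF against IL-3, 1 for 10 ng/mL TGF-β with SCF and 7 for TGF-β alone, and with the first left out 3 for 10 ng/mL and 7 for TGF-β alone. For 1 ng/mL TGF-β with SCF, limma-voom and no filter gave 1 each. For 10 ng/mL DESeq2 gave 2. For TGF-β alone, no filter gave 5 and a fit of the groups compared gave 6. The cause of these moves was not tested. Replicate numbers were not taken as pairs, since same-numbered deviations did not correlate above 0.1 in every group pair. They did in the 3 pairs of SCF-treated groups (0.15 to 0.19) and not in the 3 pairs with IL-3 (-0.0075 to 0.030). With a replicate block, which added Calr at 1 ng/mL, the counts were 16, 1, 10 and 7, in order, for SCF against IL-3, 1 and 10 ng/mL TGF-β with SCF and TGF-β alone, and 19 for the combinations against TGF-β alone (over all genes 1483, 859, 1354, 718 and 3282). The interaction and the comparison of doses gave 0 in every alternative that was run; the interaction uses all groups, so a fit of only the groups compared was not run for it. With a depth of 1237382 to 2323916 gene counts, Trib3 was tested on 1 to 12 counts per library and Atf3 was not tested.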
